A study of Homo sapiens with 24 samples.

Results

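The genes described here are those whose change between 0 and 48 h of mesoderm induction depended on genotype in HUES6, an established human embryonic stem cell line. They were found by an interaction, the change from 0 to 48 h in knockout (KO) libraries minus the change in wild-type (WT) libraries. A positive value means that the KO ended higher, relative to its start, than the WT did. Genes called higher or lower in the interaction are so named by this sign, not by their level in KO. By limma at an adjusted p under 0.05, 1587 of 19835 tested genes (8%) were called, 882 higher (4.45%) and 705 lower (3.55%). An absolute interaction of at least 1 on the log2 scale was reached by 640 of the called genes, 265 higher and 375 lower.

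The groups compared were WT at 0 h, WT at 48 h, RBPMS KO at 0 h and RBPMS KO at 48 h, each with 3 mRNA libraries, 12 of the 24 in the series. All cells were HUES6 grown in FTDA medium, and induction used 1.5 ng/ml of the growth factor BMP4 with 1.5 µM of CHIR, an inhibitor of GSK3. RBPMS encodes an RNA-binding protein. The labels do not say how the KO was made, how many clones it stands for or whether libraries came from separate cultures, so the p-values measure the spread between these samples, which may be technical. Levels are CPM, reads of a gene scaled to the library's total, not divided by gene length, and all differences are on the scale of log2(CPM + 0.25), which understates changes of genes with low levels. In bulk samples, fewer cells of a type and less RNA per cell cannot be told apart.

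BMP and WNT signals together move human pluripotent cells towards the primitive streak, the transient structure from which mesoderm and endoderm arise. CHIR stabilises beta-catenin, which then acts on its targets with DNA-binding partners of the TCF/LEF family. Strong and lasting WNT signals are known to favour posterior and presomitic mesoderm, while NODAL signals favour anterior streak and definitive endoderm. Core pluripotency factors such as SOX2 and NANOG decline as cells leave the stem cell state.

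RBPMS mRNA did not check the KO label. At 0 h its WT libraries 1, 2 and 3 held 155, 121 and 130 CPM, against 158, 153 and 153 CPM for KO. By 48 h these were 104, 95.5 and 95.4 CPM for WT, against 87.7, 80.6 and 92.5 CPM for KO. The genotypes overlapped at 0 h and did not at 48 h, where KO was the lower, and the transcript was present at a high level in every KO library. The KO label is therefore taken as given. The RBPMS interaction was -0.37 ± 0.11 (SE, limma adjusted p = 0.0348), and leaving out single libraries moved that p between 0.000372 and 0.113. With WT 0 h library 1 alone it was -0.17 as that group (limma adjusted p = 0.338). Its paralog RBPMS2 had an interaction of 0.39 (limma adjusted p = 0.16).

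Libraries held 36778751 to 49093515 reads in the 4 groups, so a library with no read for a gene allowed up to 0.0611 to 0.0816 CPM (3 reads, counting error only). Markers of the labelled cell type were high. Summed over 5 pluripotency markers, levels ran from 6050 to 6849 CPM in WT and 6510 to 6922 CPM for KO at 0 h. The 48 h sum was 4263 to 4402 CPM in WT and 5457 to 5663 CPM in KO. Mesoderm markers rose from at most 5.52 CPM summed to 905 to 1120 CPM in WT and 546.3 to 626.3 CPM in KO. Markers of neuroectoderm, fibroblasts and endothelial or blood cells summed to at most 2.80 CPM in any of the 12 libraries, and those of trophoblast and amnion to at most 4.40 CPM.

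The 3 libraries labelled WT at 0 h were not alike, and this bears on all values below. Across the tested genes library 1 correlated less with its mates (r from 0.975 to 0.978) than with the KO libraries of 0 h (r from 0.985 to 0.987). Libraries 2 and 3 correlated at 0.996 with each other. With the KO libraries of 0 h, library 2 had r from 0.982 to 0.984 and library 3 from 0.987 to 0.988, so library 1 was not the nearest to KO. In the other 3 groups every within-group r was at least 0.9905, and the lowest values were those of WT 48 h library 3 with its mates. The share of mitochondrially encoded reads was 4.64% in WT 0 h library 1, against 7.22% and 7.36% in its mates. A further difference came from genes that separate WT from KO widely.

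Genes were taken whose lowest level in the 9 WT libraries of 3, 6 and 48 h was at least 1 CPM and over 10 times their highest level in all 12 KO libraries, a rule that does not use the WT 0 h libraries. There were 6 such genes, LINC02864, PEG3, SLC25A3P1, TRIM61, ZNF208 and ZNF717, and 0 in the opposite direction. WT 0 h library 1 lay on the WT side in 6 of 6, and libraries 2 and 3 lay on the KO side in 6 of 6. PEG3, an imprinted zinc finger gene, stood at 28.4 to 45.4 CPM in the later WT libraries and at most 0.0428 CPM in KO. In WT at 0 h it was at 13.8, 0 and 0 CPM. The libraries labelled WT 0 h 2 and 3 thus went against their label in these genes, and the count of each gene list is given without library 1 and with library 1 alone. Whether the split entered through the cells, the handling or the labels was not tested.

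**Figure D1:**
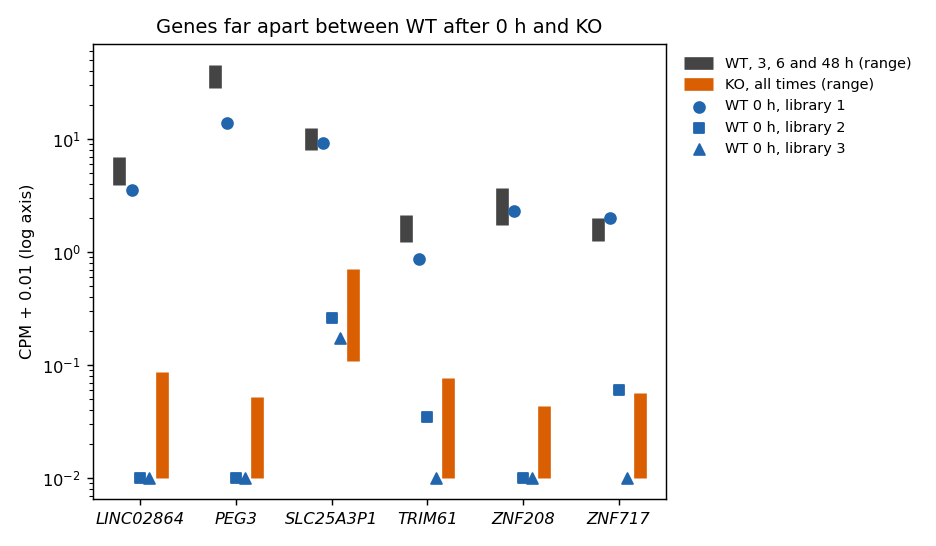
Levels (CPM + 0.01, log axis) of 6 genes that separate WT libraries of 3, 6 and 48 h (dark bars, range of 9) from all KO libraries (orange bars, range of 12). Blue marks are the 3 WT 0 h libraries: library 1 (circle) lies on the WT side of the midpoint in 6 of 6 genes, and libraries 2 (square) and 3 (triangle) lie on the KO side in 6 of 6.

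Without WT 0 h library 1 the counts rose to 2791 higher and 2403 lower (26.2% of genes), which kept 1581 of the 1587 calls. With library 1 as the only WT 0 h sample there were 1048 higher and 922 lower (9.93%), and 804 of the 1587 calls (50.66%) were made under both settings. Over all 12 fits that leave out 1 library, 841 calls (52.99%) were kept each time. A fit on the 4 groups alone called 324 higher and 363 lower (3.46%), against 882 and 705 with all 8 groups sharing the estimate of spread. edgeR on the whole reads called 751 higher and 492 lower (6.27%).

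Most of the transcriptome moved over the 48 h in either genotype. In WT 5802 genes rose (29.3%) and 4968 fell (25%), and in KO 5988 rose (30.2%) and 4835 fell (24.4%). Many called interactions were differences of degree, since 388 of the 1587 genes rose in both genotypes and 328 fell in both. A further 416 changed in WT only by these calls and 350 in KO only. In 103 genes the genotypes moved in opposite directions, 55 rising in KO and falling in WT and 48 the reverse. Among the 705 genes called lower, 254 rose in both genotypes, with a median rise of 2.25 in WT and 1.10 in KO. Among the 882 called higher, 232 fell in both, with a median of -1.96 in WT and -0.98 in KO.

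**Figure D2:**
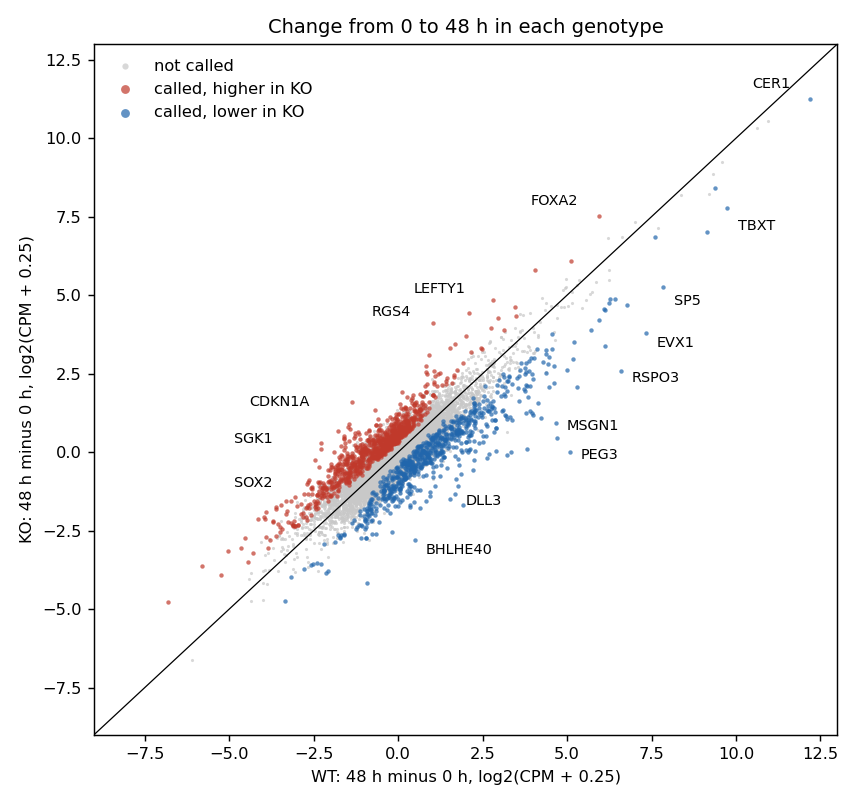
Change from 0 to 48 h in WT (x) and KO (y) for 19835 genes, each on the log2(CPM + 0.25) scale, with the line of equal change. The 705 genes called lower (blue) lie below the line and include TBXT, EVX1, RSPO3 and MSGN1, and the 882 called higher (red) lie above it and include SOX2, FOXA2 and LEFTY1.

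Of 20 primitive streak and nascent mesoderm genes tested, 11 were called lower in KO and 0 higher, with a median interaction of -0.93, against 0.01 over all genes tested. TBXT (chr6:166157656-166168700, minus strand, GENCODE 29 on hg38), the T-box factor that defines the streak, was at 0 to 0.0749 CPM in all 6 libraries of 0 h. At 48 h it stood at 228, 270 and 239 CPM in WT, against 58.9, 52.5 and 59.6 CPM in KO. The 48 h groups did not overlap, and the WT mean was 4.31 times the KO mean. Its interaction was -1.99 ± 0.19 (SE, limma adjusted p = 3.2e-07).

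EVX1 (chr7:27242700-27250493, plus strand), a homeobox gene of the posterior streak, had no read in any library of 0 h. It reached 34.3, 45.0 and 48.3 CPM in WT, against 4.01, 2.40 and 3.72 CPM in KO at 48 h, an interaction of -3.53 ± 0.26 (limma adjusted p = 1.73e-08). It overlaps its antisense partner EVX1-AS, which had an interaction of -3.23, and the counting is not stated to use strand, so their reads cannot be told apart. APLNR, the apelin receptor of nascent mesoderm, was at 316, 505 and 310 CPM in WT, against 58.4, 41.0 and 53.2 CPM in KO at 48 h. WNT3A, a WNT ligand of the streak, was at 8.57 ± 0.24 CPM in WT, against 3.57 ± 0.19 CPM in KO (SD, n = 3). In each of these genes every WT library of 48 h lay above every KO library. Here and for the other genes named, lack of overlap in a called gene is not further support. The share of all genes without overlap was not counted.

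MESP1, a factor of early mesoderm with cardiac potential, was at 2.32, 3.77 and 8.45 CPM in WT at 48 h, against 0.106, 0.0407 and 0.0225 CPM in KO. The KO values are a few reads or fewer, near the level that no read allows. Its interaction was -3.69 ± 0.39 (limma adjusted p = 1.52e-06). MIXL1, a homeobox gene of the streak, went from 0.892 ± 0.13 to 768 ± 124 CPM in WT and from 1.33 ± 0.2 to 533 ± 40.2 CPM in KO (SD, n = 3). Its interaction of -0.97 (limma adjusted p = 0.00965) had an adjusted p of 0.071 with WT 0 h library 1 alone. EOMES, a T-box factor shared by mesoderm and endoderm precursors, did not pass, with 731 ± 14.9 CPM in WT, against 503 ± 26.1 CPM in KO at 48 h and an interaction of -0.41 (limma adjusted p = 0.204).

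The streak list had 11 lower and 1 higher without WT 0 h library 1, and 10 lower and 0 higher with library 1 alone. edgeR called 5 lower, and it did not call TBXT (adjusted p = 0.882) or EVX1 (adjusted p = 1). For such genes the 0 h levels were at or near 0 reads in both genotypes, so a ratio of ratios has little data behind it. The test of KO against WT at 48 h alone gave -2.06 for TBXT (limma adjusted p = 2.38e-10) and -3.53 for EVX1 (limma adjusted p = 1.82e-11).

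**Figure D3:**
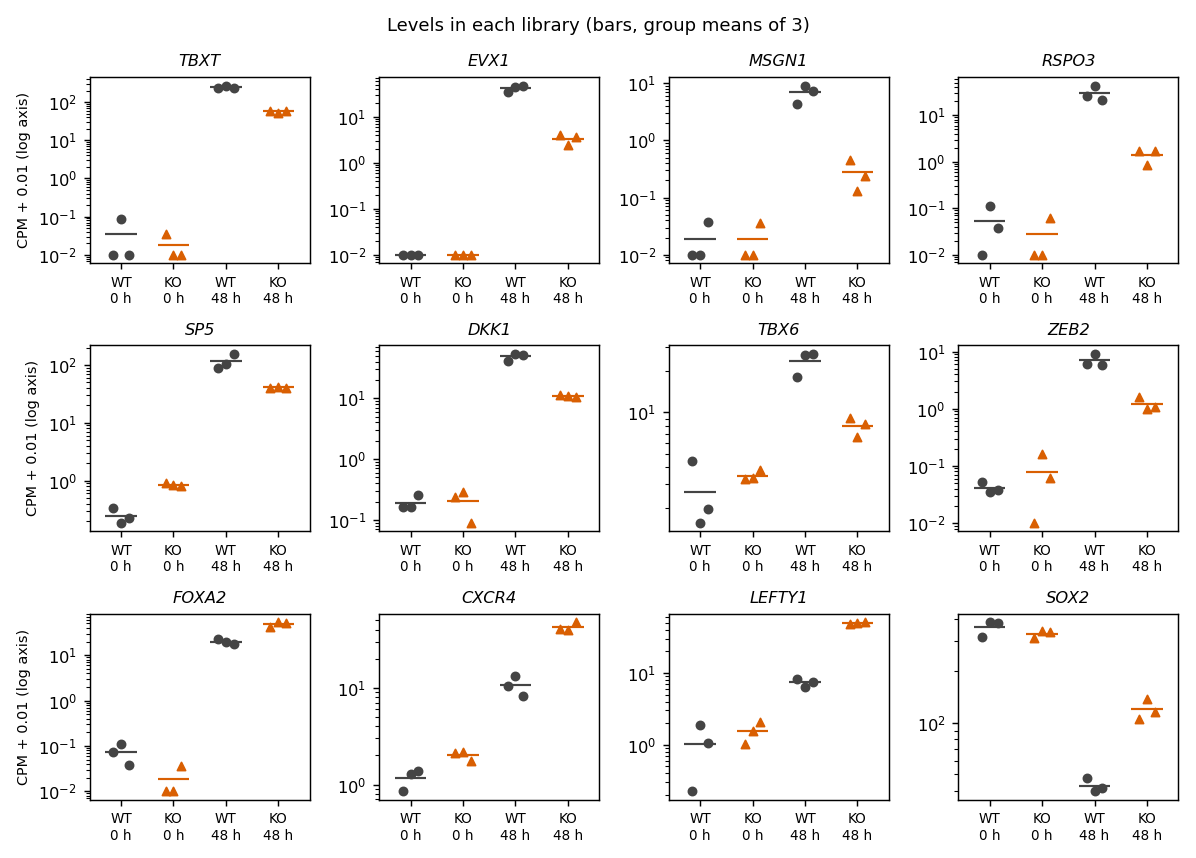
Levels (CPM + 0.01, log axis) of 12 genes in each library of the 4 groups, WT in dark circles and KO in orange triangles, with bars at group means of 3. The 8 mesoderm and WNT genes in the upper rows end lower in KO at 48 h, and FOXA2, CXCR4, LEFTY1 and SOX2 end higher, with no overlap at 48 h in any of the 12. The 12 were chosen among called genes, so their lack of overlap is not further support. The share of all genes without overlap was not counted.

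Genes of paraxial and presomitic mesoderm, the tissue that segments into somites, were called lower in 12 of 19 tested and higher in 0, with a median interaction of -1.46. MSGN1, a factor that marks presomitic mesoderm, was at most 0.0272 CPM in every library of 0 h. At 48 h it was at 4.38, 9.06 and 7.32 CPM in WT, against 0.452, 0.122 and 0.225 CPM in KO, which is 26 times higher in WT (interaction -3.73 ± 0.29, limma adjusted p = 3.1e-08). With its 0 h levels near 0 reads, MSGN1 was called neither by edgeR (adjusted p = 0.358) nor by DESeq2 (adjusted p = 0.0634). TBX6, which directs cells to the paraxial fate, rose from 4.38, 1.55 and 1.96 CPM to 18, 26.2 and 26.7 CPM in WT. In KO it rose from 3.24, 3.29 and 3.80 CPM to 9.14, 6.64 and 8.18 CPM, an interaction of -2.0 (limma adjusted p = 0.00144).

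DLL3, a Notch ligand of the segmentation clock, moved in opposite directions. Its WT libraries went from 19.6, 10.7 and 9.81 CPM to 24.3, 41.8 and 66.1 CPM, and its KO libraries from 23.9, 25.2 and 27.5 CPM down to 9.86, 9.45 and 10.1 CPM. The KO was thus the higher genotype at 0 h and the lower at 48 h, with an interaction of -3.0 ± 0.39 (limma adjusted p = 1.85e-05). CYP26A1, which degrades retinoic acid, reached 296 ± 12.2 CPM in WT, against 156 ± 15.7 CPM in KO. WNT5B, a WNT ligand, reached 19.1 ± 3.54 CPM in WT, against 3.75 ± 0.093 CPM in KO (SD, n = 3). The list had 12 lower and 1 higher without WT 0 h library 1 and 9 lower with library 1 alone, and the calls lost with library 1 alone were HES7, DLL1 and MESP2 (limma adjusted p = 0.222, 0.0841 and 0.141).

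Of 23 WNT pathway targets and feedback genes, 10 were called lower in KO and 0 higher, with a median interaction of -0.66. Without WT 0 h library 1 there were 12 lower and 3 higher, and with library 1 alone 12 lower and 0 higher. SP5, a zinc finger factor induced directly by WNT signals, went from 0.324, 0.175 and 0.217 CPM to 88.8, 105 and 156 CPM in WT. In KO it started higher, at 0.885, 0.824 and 0.787 CPM, and ended lower, at 40.3, 42.4 and 40.6 CPM. Its interaction was -2.58 ± 0.27 (limma adjusted p = 1.62e-06). DKK1, a secreted WNT antagonist, reached 41.6, 53.7 and 50.5 CPM in WT, against 11.2, 11.1 and 10.4 CPM in KO, from at most 0.275 CPM in every library of 0 h (interaction -2.11, limma adjusted p = 1.19e-05).

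The promoters of SP5 and DKK1 are shown because both genes rose from near 0 in each genotype and to different heights, and both hold words that TCF/LEF factors are known to bind. The stretches are the 250 bases before the gene start in RefSeq on GRCh38.p14, 5′ to 3′ on the gene's plus strand, at chr2:170715087-170715336 for SP5 and chr10:52314031-52314280 for DKK1. Capitals mark the word CTTTGAA, the word CTTTGAT, the word CTTTGTA or the word CTTTGTT, read on both strands.
SP5: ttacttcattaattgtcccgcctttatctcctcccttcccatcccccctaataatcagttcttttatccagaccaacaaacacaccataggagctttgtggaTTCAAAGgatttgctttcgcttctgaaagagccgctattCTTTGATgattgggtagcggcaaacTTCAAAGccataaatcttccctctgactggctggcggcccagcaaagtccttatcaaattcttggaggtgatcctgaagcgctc
DKK1: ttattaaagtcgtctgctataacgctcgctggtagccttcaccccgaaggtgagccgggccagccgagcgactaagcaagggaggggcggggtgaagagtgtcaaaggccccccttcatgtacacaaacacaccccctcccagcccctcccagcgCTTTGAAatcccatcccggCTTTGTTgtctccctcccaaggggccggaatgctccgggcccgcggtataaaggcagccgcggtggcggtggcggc

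SP5 held 3 such words and DKK1 held 2. At least 1 was present in 12.1% of the 27305 promoters of this length in the RefSeq table that lie outside chromosome 8. The table holds promoters of 13321 tested genes by symbol, and the share was 8.05% among these, 10.6% of those of genes called lower and 8.31% of those called higher. Among the called WNT targets with a promoter in the table it was 3 of 8. A match describes these letters and is not evidence that a factor was bound.

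LEF1, a TCF/LEF factor and itself a target, overlaps LEF1-AS1 on the other strand and was followed through the series. At 3 h it was at 24.9 ± 0.67 CPM in WT, against 28.5 ± 3.35 CPM in KO, and at 6 h at 5.36 ± 0.52 and 5.79 ± 0.89 CPM (SD, n = 3). At 48 h it was at 10.5, 13.5 and 10.3 CPM in WT, against 5.61, 5.05 and 5.38 CPM in KO, and its interaction was -1.88 (limma adjusted p = 2.79e-05). CDX1, a caudal homeobox gene, stood at 31.0 ± 1 CPM in WT, against 37.2 ± 3.51 CPM in KO at 3 h, and at 48 h at 4.26 ± 1.07 and 0.343 ± 0.026 CPM. CDX2, its relative, stood at 27.1 ± 2.43 and 34.7 ± 7.12 CPM at 3 h, then at 2.75 ± 1.24 and 0.273 ± 0.096 CPM at 48 h. In these 3 genes the KO mean was the higher at 3 h and the lower at 48 h, and the difference between the hours was not tested.

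RSPO3 (chr6:127118604-127197765, plus strand), a secreted enhancer of WNT signalling, had among the largest interactions. It was at most 0.0999 CPM at 0 h, 25.3, 43.4 and 21.6 CPM in WT at 48 h and 1.70, 0.856 and 1.69 CPM in KO, an interaction of -4.01 ± 0.32 (limma adjusted p = 3.78e-08). WNT5A, a WNT ligand that acts mostly without beta-catenin, went from 5.74 ± 0.37 to 44.0 ± 11.1 CPM in WT and from 4.40 ± 0.29 to 9.16 ± 1.18 CPM in KO. WNT8A was lower in KO at 48 h, at 5.78 ± 0.3 against 21.9 ± 2.86 CPM. Its interaction changed sign by method, from -1.61 in limma to 0.43 in edgeR (adjusted p = 0.807). Its level was at most 0.0863 CPM in any library of 0 h. RSPO3 was not called by edgeR either (adjusted p = 0.341).

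Other mesoderm groups moved the same way in part. Mesenchymal genes were called lower in 7 of 15 (median -0.44), BMP targets in 6 of 20 with 1 called higher (median -0.21), and cardiac and lateral plate genes in 5 of 21 (median -0.18). Mesenchymal genes had 8 lower without WT 0 h library 1 and 8 with it alone. BMP targets had 6 lower under each of these settings, with 3 higher without library 1 and 1 with it alone, and the cardiac list had 6 lower and 1 higher, then 5 lower. ZEB2, a repressor of epithelial genes, reached 6.08, 9.12 and 5.89 CPM in WT, against 1.59, 0.998 and 1.06 CPM in KO, from at most 0.15 CPM at 0 h (interaction -2.41, limma adjusted p = 1.31e-05). SNAI1, another such repressor, went from 3.96 ± 0.81 to 23.8 ± 3.48 CPM in WT and from 4.56 ± 0.043 to 12.3 ± 1.6 CPM in KO. Neither genotype's libraries overlapped with the other's for these genes at 48 h, which is not further support in called genes.

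MSX2, a homeobox target of BMP signals, reached 2.9 ± 0.4 CPM in WT, against 1.1 ± 0.22 CPM in KO. The endogenous BMP4 gene was at 14.9, 16.3 and 12.8 CPM in WT, against 9.70, 8.60 and 8.92 CPM in KO at 48 h, from 9.26 ± 0.95 and 9.82 ± 0.91 CPM at 0 h (interaction -0.75, limma adjusted p = 0.00979). HEY1, a target of Notch and BMP signals, was the member called higher, at 1.33 ± 0.11 CPM in WT, against 2.59 ± 0.22 CPM in KO. FOXF1 and HAND1 of the lateral plate stayed low, at 0.903 ± 0.59 and 0.442 ± 0.26 CPM in WT and at most 0.0815 CPM in any KO library of 48 h.

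Of 16 definitive endoderm genes tested, 5 were called higher and 1 lower, with a median interaction of 0.37. Without WT 0 h library 1 these were 7 and 2, and with library 1 alone 4 and 1. FOXA2, a forkhead factor of anterior streak and endoderm, was at most 0.0999 CPM at 0 h and reached 22.9, 19.6 and 17.4 CPM in WT, against 41.8, 53.8 and 51.6 CPM in KO. The KO mean was 2.46 times the WT mean, with no overlap (interaction 1.59 ± 0.23, limma adjusted p = 7.34e-05). CXCR4, a chemokine receptor used to sort endoderm, reached 10.4, 13.1 and 8.18 CPM in WT, against 40.2, 39.4 and 47.9 CPM in KO. Its adjusted p of 0.00381 by limma became 0.0518 with WT 0 h library 1 alone.

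LEFTY1, an inhibitor and target of NODAL, stood at 8.25, 6.27 and 7.54 CPM in WT, against 47.5, 49.8 and 50.9 CPM in KO at 48 h, 6.72 times higher in KO. At 0 h it varied from 0.216 to 1.85 CPM in WT, and its interaction of 2.05 fell to 0.86 (limma adjusted p = 0.0769) with WT 0 h library 1 alone. CER1, a secreted inhibitor of NODAL, BMP and WNT, was the endoderm member called lower. It reached 2067, 2449 and 2263 CPM in WT, against 2477, 2383 and 2757 CPM in KO, which overlapped, and differed at 0 h instead, at 0.228 ± 0.019 against 0.815 ± 0.13 CPM. Its call ended with a pseudocount of 1. SOX17, a defining endoderm factor, did not pass, at 36.3 ± 9.12 CPM in WT, against 41.2 ± 2.08 CPM in KO (interaction 0.32, limma adjusted p = 0.467). GATA6 likewise did not pass, at 93.8 ± 7.74 and 88.3 ± 9.4 CPM (limma adjusted p = 0.801). Over the 18 genes of the NODAL and activin pathway 3 were called higher and 3 lower. This split moved with the WT 0 h libraries, to 5 higher and 4 lower without library 1 and to 1 higher and 4 lower with it alone.

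Of 27 pluripotency genes tested, 12 were called higher in KO and 0 lower, with a median interaction of 0.61. SOX2 (chr3:181711924-181714436, plus strand) went from 317, 386 and 382 CPM to 47.6, 39.8 and 41.5 CPM in WT. In KO it went from 311, 342 and 336 CPM to 104, 138 and 116 CPM. The genotypes overlapped at 0 h and were apart at 48 h, with 2.78 times more in KO (interaction 1.6 ± 0.17, limma adjusted p = 1.73e-06). SOX2 lies within SOX2-OT on the same strand.

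NANOG, a homeobox factor of the stem cell state, was higher in KO at 0 h already, at 178 ± 12.7 against 119 ± 14 CPM, and at 48 h stood at 118 ± 3.44 against 49.5 ± 7.57 CPM (interaction 0.68, limma adjusted p = 0.00769). TERF1, a telomere-binding protein abundant in stem cells, went from 834, 939 and 964 CPM to 183, 170 and 172 CPM in WT and from 649, 677 and 671 CPM to 326, 367 and 318 CPM in KO. It thus crossed over, lower in KO at 0 h and higher at 48 h. USP44, a deubiquitinase of stem cells, fell from 357 ± 19.1 to 70.9 ± 11.4 CPM in WT and from 404 ± 20.3 to 149 ± 9.35 CPM in KO. POU5F1 was at 1475, 1508 and 1761 CPM in WT, against 2059, 2249 and 2112 CPM in KO at 48 h. Its interaction of 0.50 (limma adjusted p = 0.048) was lost in 10 of the fits that leave out 1 library.

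The pluripotency calls numbered 17 without WT 0 h library 1 and 11 higher with 1 lower with library 1 alone, and edgeR called 13. FOXD3, a forkhead factor of stem cells and neural crest, was at 2.02, 2.25 and 1.98 CPM in WT, against 6.72, 6.42 and 6.67 CPM in KO at 48 h, from 6.40 ± 1.27 and 7.92 ± 0.95 CPM. POU3F1, active in stem cells and early neural cells, fell to 0.969 ± 0.22 CPM in WT, against 3.40 ± 0.19 CPM in KO. SIX3, a forebrain factor, had no read at 0 h and reached 0.297 ± 0.11 CPM in WT, against 1.33 ± 0.46 CPM in KO. The neuroectoderm list held these 2 calls, both higher, among 12 tested (4 without WT 0 h library 1 and 2 with it alone), and the defining marker PAX6 did not pass (interaction 0.14, limma adjusted p = 0.788).

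Targets of p53, the damage-responsive tumour suppressor, were called higher in 16 of 30 and lower in 0, with a median interaction of 0.66. At 0 h 12 of the 30 were lower in KO and 2 higher, where 7.16% and 8.22% of all genes were. At 48 h 14 were higher in KO and 1 lower, where 7.59% and 4.73% of all genes were. The 0 h counts were made only with all WT 0 h libraries. CDKN1A, a cyclin-dependent kinase inhibitor, showed this crossing: it was at 27.1, 43.4 and 40.5 CPM in WT, against 12.8, 17.6 and 19.6 CPM for KO at 0 h. By 48 h the values were 14.9, 13.1 and 15.2 CPM in WT, against 27.2, 21.2 and 18.4 CPM in KO (interaction 1.74 ± 0.22, limma adjusted p = 1.66e-05). RRM2B, a ribonucleotide reductase subunit induced by p53, fell from 191 ± 22.8 to 90.4 ± 11.7 CPM in WT and stood at 149 ± 10.1 and 132 ± 11.5 CPM in KO. The list had 20 higher without WT 0 h library 1 and 10 with library 1 alone.

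The called genes split by when the genotypes differed. Over all genes, KO against WT gave 1630 higher (8.22%) and 1420 lower (7.16%) at 0 h, and 1505 higher (7.59%) and 938 lower (4.73%) at 48 h. These tests share libraries with the interaction and are not independent of it. Of the 1587 genes, 701 differed at 48 h only, 607 at 0 h only, 109 at both hours in opposite directions and 48 at both in the same direction, and 122 at neither hour by these tests. Without WT 0 h library 1 the count for 0 h only was 2884. A gene of the second kind is thus one whose genotypes started apart and ended close.

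**Figure D4:**
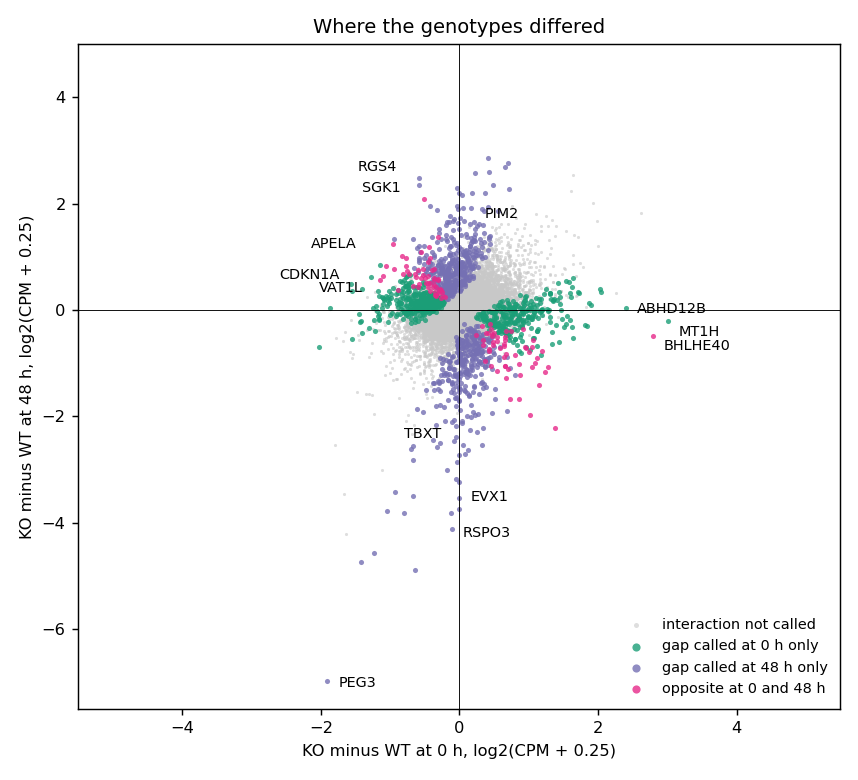
KO minus WT at 0 h (x) against KO minus WT at 48 h (y), log2(CPM + 0.25), for 19835 genes. Coloured points are called interactions: 607 genes apart at 0 h only (green), 701 apart at 48 h only (purple) and 109 apart in opposite directions (pink), while the 48 apart in the same direction and the 122 apart at neither hour are not drawn.

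ABHD12B, an alpha/beta hydrolase, had the smallest adjusted p among genes apart at 0 h only. It was at 14.2, 19.8 and 23.9 CPM in WT, against 109, 99.8 and 88.5 CPM in KO at 0 h, and at 16, 13.9 and 19.8 CPM and 17.6, 15.3 and 16.4 CPM at 48 h. The groups were far apart at 0 h and overlapped at 48 h (interaction -2.37 ± 0.22, limma adjusted p = 3.2e-07). It overlaps PYGL on the other strand. ERVH48-1, a transcript of an endogenous retroviral locus, had the same form, at 14.7 ± 3.42 and 42.1 ± 5.05 CPM at 0 h and 17 ± 0.58 and 15.2 ± 0.68 CPM at 48 h in WT and KO. VAT1L went the opposite way, at 66.5 ± 8.66 and 30.1 ± 1.47 CPM at 0 h and 30.0 ± 6.29 and 33.3 ± 1.16 CPM at 48 h.

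MT1H, a metallothionein that binds zinc and copper, was at 1.19, 0.400 and 0.163 CPM in WT, against 5.36, 5.39 and 6.17 CPM in KO at 0 h, and at most 0.225 CPM in any of the 6 libraries of 48 h (interaction -3.23, limma adjusted p = 2.21e-05). At 3 h the order was the reverse, with 11.3 ± 0.38 CPM for WT against 0.0501 ± 0.069 CPM for KO. Of 10 genes in the metallothionein list, 9 were higher in KO at 0 h and 1 was called in each direction in the interaction (2 higher and 2 lower without WT 0 h library 1, and 1 higher and 2 lower with it alone). The member called higher was SLC30A1, a zinc exporter, which fell from 58.8 ± 13.6 to 16.4 ± 4.48 CPM in WT and from 53 ± 3.69 to 39.5 ± 3.65 CPM in KO. Over all genes 8.22% were higher in KO at 0 h, and the 0 h count of 9 was made only with all WT 0 h libraries.

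Targets of hypoxia-inducible factors, the transcription factors stabilised at low oxygen, were mostly apart at 0 h. Of 32 tested, 24 were higher in KO at 0 h and 0 lower, where 8.22% and 7.16% of all genes were. This 0 h count was made only with all WT 0 h libraries. The interaction was called lower in 10 and higher in 1, with a median of -0.67. BHLHE40 (chr3:4979116-4985323, plus strand, overlapping BHLHE40-AS1), a transcriptional repressor induced by hypoxia, was at 16.9, 8.89 and 12.8 CPM in WT, against 93.8, 82.9 and 80.0 CPM for KO at 0 h. By 48 h the values were 16.4, 18.2 and 17.4 CPM in WT, against 13.6, 10.2 and 12.2 CPM in KO. The KO went from far above the WT to slightly below it, an interaction of -3.28 ± 0.22 (limma adjusted p = 6.16e-09) that was called in all 12 fits that leave out 1 library and was -2.84 with WT 0 h library 1 alone.

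PFKFB4, a regulator of glycolytic flux, was at 58.9, 30.5 and 43.2 CPM in WT, against 130, 120 and 123 CPM in KO at 0 h, then at 51.6 ± 4.31 and 82.2 ± 6.85 CPM at 48 h (interaction -0.86, limma adjusted p = 0.00897). EGLN1, the oxygen-sensing hydroxylase, was at 48.5, 18.9 and 25.6 CPM in WT, against 76.6 ± 4.61 CPM in KO at 0 h. In these genes library 1 was the highest of the WT 0 h libraries. Neither was called with library 1 alone (limma adjusted p = 0.0956 for PFKFB4 and 0.176 for EGLN1).

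The promoters of BHLHE40 and PFKFB4 are shown as 2 called genes of this list that had a 0 h difference and hold a match. Holding a match was a condition for being shown, so its presence in these promoters is not a result. They lie at chr3:4979187-4979436 (plus strand) and chr3:48556804-48557053 (minus strand) in RefSeq on GRCh38.p14 and are printed 5′ to 3′ along the gene. The BHLHE40 stretch lies before the RefSeq start but inside the GENCODE span of the gene given above, whose start is farther upstream. By the GENCODE start it is therefore not upstream sequence. Capitals mark the word ACGTG or the word GCGTG, the core of the hypoxia response element, on either strand.
BHLHE40: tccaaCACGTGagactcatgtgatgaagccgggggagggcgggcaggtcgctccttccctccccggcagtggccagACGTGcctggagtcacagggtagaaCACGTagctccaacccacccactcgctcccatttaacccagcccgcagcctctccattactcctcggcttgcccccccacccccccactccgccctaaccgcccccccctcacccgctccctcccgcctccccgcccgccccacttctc
PFKFB4: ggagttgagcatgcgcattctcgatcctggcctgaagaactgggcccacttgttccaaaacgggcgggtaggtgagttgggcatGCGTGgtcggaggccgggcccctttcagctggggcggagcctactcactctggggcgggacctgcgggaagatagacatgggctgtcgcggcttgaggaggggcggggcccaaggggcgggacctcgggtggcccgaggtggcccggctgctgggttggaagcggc

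BHLHE40 held 4 matches, of which the pair farthest from the RefSeq gene start is CACGTG read on both strands, and PFKFB4 held 1. The word is common: 43.1% of the 27305 promoters had it, 54.8% of those of tested genes, 49.3% of those of genes called lower and 8 of 10 promoters of called members of the list.

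The counts of several metabolic and growth lists moved with the choice of WT 0 h libraries. Those of all genes moved too: 26.2% were called without library 1, a larger share than with all libraries. A rise in a list without library 1 is thus not by itself a trait of that list. Whether any list rose more than all genes did was not tested. Hypoxia targets had 24 lower and 2 higher without library 1, and 5 lower and 4 higher with library 1 alone. Glycolysis genes had 1 lower among 18 with all libraries, 15 lower without library 1, and 4 higher and 0 lower with it alone. Ribosome biogenesis genes were called higher in 11 of 30 (median 0.41), with 24 higher and 1 lower without library 1 and 2 higher and 1 lower with it alone. The integrated stress and unfolded protein response list had 6 higher and 1 lower of 29 (median 0.46), 20 higher and 2 lower without library 1, and 2 higher and 2 lower with it alone. Cell cycle genes had 6 higher and 2 lower of 32, 12 higher and 5 lower without library 1, and 0 in either direction with it alone.

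**Figure D5:**
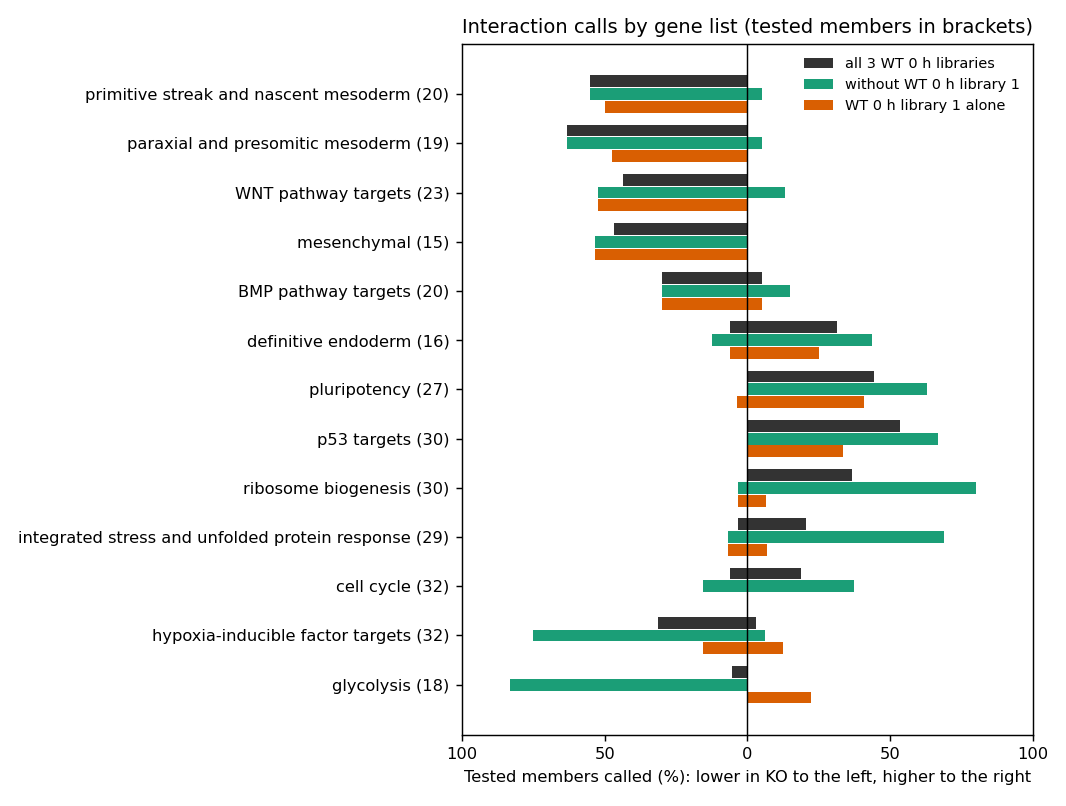
Percent of tested members called in the interaction for 13 gene lists, lower in KO to the left and higher to the right, with all 3 WT 0 h libraries (dark), without library 1 (green) and with library 1 alone (orange). The streak, presomitic, WNT and mesenchymal lists keep similar bars to the left under the 3 settings, while the ribosome biogenesis, stress, cell cycle, hypoxia and glycolysis lists do not.

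NOP58, a core protein of snoRNA complexes in ribosome production, illustrates this. Its WT libraries of 0 h held 109, 191 and 177 CPM, where library 1 lay near the KO libraries at 100, 103 and 105 CPM. The 48 h levels were 123 ± 0.99 CPM in WT, against 138 ± 5.73 CPM in KO, and its interaction of 0.76 (limma adjusted p = 0.0075) was 0.26 with library 1 alone (adjusted p = 0.103). GNL3, a nucleolar GTPase, and WDR12, a ribosome assembly factor, kept their calls in every fit that leaves out 1 library and with library 1 alone, with interactions of 0.45 and 0.42. FDFT1, the first committed enzyme of cholesterol synthesis, was at 312, 338 and 287 CPM in WT, against 177, 184 and 197 CPM in KO at 0 h, then at 344 ± 44.4 and 358 ± 4.98 CPM at 48 h. It was 1 of 6 members called higher among 25 in that list (6 higher without library 1, and 3 higher and 2 lower with it alone), and its interaction was 0.82 both with all libraries and with library 1 alone.

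Among 29 immediate early genes 4 were called higher and 5 lower, with 11 higher and 6 lower without WT 0 h library 1 and 4 higher and 9 lower with it alone. KLF6, a zinc finger factor, was at 30.7, 23.1 and 23.6 CPM in WT, against 55.3, 51.6 and 49.8 CPM in KO at 0 h and met at 47.0 ± 4.67 and 49.0 ± 1.87 CPM at 48 h (interaction -0.95, limma adjusted p = 0.000147). FOSL2, an AP-1 subunit, was at 5.72 ± 1.75 and 12.8 ± 1.09 CPM at 0 h and 4.14 ± 0.51 and 4.06 ± 0.26 CPM at 48 h. BTG2, an antiproliferative gene that p53 also induces, was called higher, at 0.67 (limma adjusted p = 0.00445). The FGF and ERK response list had 1 higher and 2 lower of 22, and its balance turned with the WT 0 h libraries, from 2 higher and 5 lower without library 1 to 5 higher and 2 lower with it alone.

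The largest values called higher came from genes of varied roles. RGS4, a regulator of G protein signalling, rose from 0.237, 0.499 and 0.245 CPM to 0.972, 1.06 and 0.750 CPM in WT and from 0.101, 0.125 and 0.131 CPM to 5.45, 6.5 and 6.6 CPM in KO (interaction 3.06 ± 0.28, limma adjusted p = 3.12e-07). SGK1, a kinase induced by serum and steroids, fell from 14.8, 22.2 and 20.6 CPM to 3.84, 3.25 and 3.68 CPM in WT. In KO it was at 12.1, 13.1 and 13.3 CPM and then at 15, 17.8 and 14.3 CPM. The genotypes of SGK1 moved in opposite directions, with an interaction of 2.60 ± 0.17 (limma adjusted p = 4.37e-09).

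PIM2, a serine/threonine kinase, fell from 456, 430 and 435 CPM to 76.1, 68.3 and 75.2 CPM in WT and from 455, 505 and 536 CPM to 222, 237 and 219 CPM in KO (interaction 1.45, limma adjusted p = 2.31e-08). APELA, a peptide ligand of the apelin receptor, fell from 218, 163 and 180 CPM to 5.39 ± 1.18 CPM in WT and from 89.1, 86.6 and 85.7 CPM to 9.35 ± 0.97 CPM in KO, an interaction of 1.87. Its receptor gene APLNR, described above, had an interaction of -2.14. IDO1, which degrades tryptophan, was at least 59.5 CPM in every library of 0 h and fell to 0.652 ± 0.19 CPM in WT, against 3.78 ± 0.45 CPM in KO. SYT2, a calcium sensor of vesicle release, fell from 31.7 ± 8.78 to 1.49 ± 0.27 CPM in WT and from 29.3 ± 2.15 to 6.31 ± 0.38 CPM in KO. Every one of these 4 genes was called in all 12 fits that leave out 1 library.

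FOXQ1, a forkhead factor, reached 1.2, 1.21 and 0.773 CPM in WT, against 5.61, 5.93 and 6.31 CPM in KO, from at most 0.0749 CPM at 0 h. Its interaction of 2.32 (limma adjusted p = 4.34e-06) was not called by edgeR (adjusted p = 0.12). SFRP1, a secreted WNT antagonist, was at 351, 82.3 and 75.0 CPM in WT at 0 h, a group that 1 library dominates, and at 65.6 ± 4.65 CPM in KO. The 48 h levels were 46.8 ± 12.8 CPM in WT, against 113 ± 12.7 CPM in KO, and its interaction was 2.28 with all libraries, 1.56 without library 1 and 3.72 with it alone. It was not called in the fit on the 4 groups (adjusted p = 0.0713). CYP2B6, a xenobiotic-metabolising enzyme, was at 5.74 ± 2.5 and 6.08 ± 0.14 CPM at 0 h and at 0.899 ± 0.28 CPM in WT, against 6.36 ± 0.51 CPM in KO at 48 h. LRAT, which esterifies retinol, was at 629 ± 19.8 and 655 ± 106 CPM in WT and KO at 3 h, then at 18.1 ± 4.42 and 67.8 ± 10.4 CPM at 48 h. From 0 to 48 h LRAT was called as rising in KO and falling in WT. Its interaction was 2.37 with all libraries, 2.01 without WT 0 h library 1 and 3.08 with it alone. From the transcript counts the interaction was 0.30 (edgeR adjusted p = 0.817).

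A set of the largest values called lower rested on the WT 0 h libraries. TAF9B (chrX:78129748-78139706, minus strand), a subunit of transcription initiation complexes, was at 22.9, 0.849 and 1.2 CPM in WT at the start and rose to 86.0, 96.1 and 77.8 CPM by 48 h. In KO it was at 2.07, 1.82 and 1.68 CPM at 0 h and 3.08, 2.53 and 2.23 CPM at 48 h, but at 38.3 CPM at 3 h and 47.3 CPM at 6 h on average. The KO libraries of 3 and 6 h thus did not share the low level of the KO libraries of 0 and 48 h. Its interaction of -4.25 was -5.65 without library 1 and -1.47 with it alone. TAF9B was not called by edgeR (-2.89, adjusted p = 0.0692) or in the fit on the 4 groups (adjusted p = 0.0645).

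NAP1L5, an imprinted gene that overlaps HERC3 on the other strand, had the same form. It was at 5.46, 0.424 and 0.571 CPM in WT at 0 h, 6.63 ± 0.75 CPM in WT at 48 h and 0.773 ± 0.05 CPM in KO at 48 h, with 7.90 CPM in KO at 3 h. PEG3, at 35.9, 35.5 and 28.4 CPM in WT at 48 h and 0 in each of the 6 KO libraries compared, had an interaction of -5.08 with all libraries, -6.98 without library 1 and -1.27 with it alone. For PEG3 edgeR gave -2.78 (adjusted p = 1) and the fit on the 4 groups no call (adjusted p = 0.108). ZNF37A, a zinc finger gene, was called higher through the reverse, at 4.08, 29.3 and 34.4 CPM in WT at 0 h, 5.04 ± 0.46 CPM in WT at 48 h and 25.2 ± 2.68 and 32.9 ± 1.2 CPM in KO. With library 1 alone its interaction was 0.11 (limma adjusted p = 0.808).

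Epithelial genes had 1 call among 21 tested and collagens and matrix genes 1 among 25, near the 8% of all genes. Without WT 0 h library 1 the epithelial list had 1 higher and 3 lower and the matrix list 4 higher and 7 lower, where 26.2% of all genes were called, and with library 1 alone each had 3 higher and 0 lower. With all libraries the matrix call was LAMA4, a laminin chain, which went from 3.20 ± 1.32 to 1.11 ± 0.34 CPM in WT and from 1.92 ± 0.37 to 2.77 ± 0.2 CPM in KO (interaction 1.79, limma adjusted p = 0.000334). Of the fixed lineage markers, GATA4 (adjusted p = 0.0767), GATA3 (0.754) and TFAP2A (0.896) did not pass in limma, and SOX1 was not tested.

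The calls of the genes described above were compared across the other fits. Of 77 called genes, edgeR called 56. The 21 it did not call were TBXT, EVX1, EVX1-AS, MESP1, WNT3A, APLNR, MSGN1, HES7, CDX1, CDX2, RSPO3, WNT8A, MSX2, FOXF1, HAND1, SIX3, POU5F1, FOXQ1, PEG3, TAF9B and NAP1L5. DESeq2, which called 9.36% of the genes it gave an adjusted p, did not call 14 of the 77 and gave no adjusted p for 5 more, PEG3, TAF9B, NAP1L5, FOXF1 and HAND1. The fit on the 4 groups called 61 of the 77. It did not call SFRP1, LEFTY1, ZNF37A, PEG3, TAF9B, NAP1L5, HAND1, MSX2, BTG2, PFKFB4, EGLN1, NOP58, RBPMS, POU5F1, MESP2 and HES7. Without WT 0 h library 1 all 77 were called. With library 1 alone 64 were, and the 13 lost were LEFTY1, ZNF37A, NAP1L5, HAND1, CXCR4, PFKFB4, EGLN1, NOP58, RBPMS, MIXL1, MESP2, DLL1 and HES7.

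The deposited transcript counts, summed per gene, gave calls for 2.59% of genes, and 26 of the 69 described genes tested there were called. Interactions that were closer to 0 there by over 1.5 times and not called included CEMIP (0.63), LRAT (0.30), TERF1 (0.49), CDKN1A (0.53), FDFT1 (0.24), GNL3 (0.23), FOXA2 (0.94), KLF6 (-0.54), MSX2 (-0.43), RSPO3 (-1.61) and TAF9B (-1.32). SGK1, SOX2, SP5, BHLHE40 and DLL3 were called in every fit named in these paragraphs.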

How the data were processed

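Poly(A)-selected RNA of 24 libraries was sequenced with a stranded kit, per the labels' protocols. The authors deposited a gene table in CPM and a table of counts per transcript. The submitters' processing notes name hg38 and DESeq2, and the aligner and counter are not given in the sources used here. Column names of the gene-level file stand 1 place off the values. With the shift undone, 24 of 24 libraries were nearest to the transcript counts of their own group, against 16 with the header as it stands.

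The CPM value of a single read was estimated in each library from its lowest values and refined from the summed reads. Dividing by it gave 29896358 to 50451908 reads per library. Of the nonzero values checked, which left out the highest, 100% lay within 0.1 read of a whole number. The design had provided for counts, and since the unit was CPM the main test was limma 3.58.1 (R 4.3.3) with a mean trend on log2(CPM/TMM factor + 0.25), fitted on all 8 groups (16 residual degrees of freedom) for 19835 of 57820 genes with at least 10 reads in enough libraries and 15 in all. P-values were adjusted by Benjamini-Hochberg over all tested genes, with calls at an adjusted p under 0.05. edgeR 4.0.16 on the whole reads called 751 higher and 492 lower, and DESeq2 1.42.0 called 1107 and 639. The code was tested on simulated data.

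Symbols were found for 52338 gene IDs (90.52%), and coordinates are from GENCODE 29. Genes were named by rule: the 15 largest called interactions in each direction with at least 5 CPM in a group, up to 4 called members of each list by adjusted p, the 4 smallest p in each class of genotype difference, and fixed lineage markers. Further called list members are named where a sentence turns on them and were chosen after their values were seen. Some genes that the rule takes are not reported here. The members and lists were chosen with earlier results of these data known. Alternatives changed scaling, filter, pseudocount, samples, test and table. Replicate numbers did not pair the samples.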

Additional observations from a re-analysis of the deposited data

Results flagged for a closer look

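By the test of the interaction itself, the response to induction differed between the genotypes in 882 genes with a positive and 705 with a negative interaction. Among the genes named for the size of their interaction or for when the genotypes differed, 7 were called in opposite directions in the separate tests of each genotype. SGK1 (2.603), CEMIP (2.444), LRAT (2.367) and SFRP1 (2.283) rose in KO and fell in WT, and BHLHE40 (-3.279), DLL3 (-3.005) and ZNF578 (-2.082) fell in KO and rose in WT. For BHLHE40, WT 0 h library 1 lay within the range of the WT libraries of 48 h, so its WT rise came from the other WT 0 h libraries. CEMIP, a hyaluronan-degrading protein, went from 3.73 ± 0.36 to 0.922 ± 0.36 CPM in WT, while the KO libraries went from 4.96 ± 0.82 to 7.84 ± 0.83 CPM (SD, n = 3). From the transcript counts the interaction of CEMIP was 0.63 (edgeR adjusted p = 0.795) and that of LRAT 0.30 (edgeR adjusted p = 0.817), and neither was called. ZNF578, a zinc finger gene, went from 14.8 ± 4.92 to 19.8 ± 0.79 CPM in WT, while the KO libraries went from 50.3 ± 10.6 to 15.8 ± 0.54 CPM. SFRP1 was dominated by WT 0 h library 1, at 351 CPM, and its interaction was 1.56 without that library and 3.72 with it alone.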

How the results depend on the processing

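With 882 genes higher and 705 lower as reported, the fit on the 4 groups alone gave 324 and 363, sample weights gave 2907 and 2485, leaving out the 3 libraries that stood apart (WT 0 h 1, WT 48 h 3 and KO 3 h 3) gave 4101 and 3578, and transcript counts summed per gene gave 291 and 168. In that order, the 607 genes apart at 0 h only became 217, 2404, 4358 and 183, and the 701 apart at 48 h only became 369, 1483, 1319 and 176. Leaving out 1 library gave 550 to 2791 higher, 473 to 2403 lower, 285 to 2884 apart at 0 h only and 484 to 1144 apart at 48 h only. Each highest count came without WT 0 h library 1. Chosen after seeing the data, TMM factors from tested genes only gave 761 and 778, and WT 0 h library 1 alone gave 1048 and 922. The higher share of calls was 55.58% as reported, 49.45% with those factors, 60.42% in edgeR, 63.4% in DESeq2 and 47.16% with the 4 groups. A replicate block gave 880 higher and 691 lower. Deviations of same-numbered libraries had a median correlation of 0.013 (-0.147 to 0.215, 18 pairs, 2 over 0.1), so the numbers were not used as pairs.

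Among values of single genes under alternatives, 4186 kept direction and call, 721 lost the call, 11 gained one and 10 changed sign with a call in either fit. Values that DESeq2 gave no adjusted p were left out. Among these single genes the sign changed with transcript counts for PODXL (-0.1261), SPRY1 (-0.2241), HMGCS1 (-0.13), IDI1 (-0.3869), GRB10 (-0.4664), ID2 (1.422), ADM (-1.153) and CEBPG (-0.1589). WNT8A changed sign in edgeR (0.4255) and DESeq2 (0.7038). The cause was not tested. Of 1265 called genes tested in the transcript table, 282 were called there in the same direction. The sign of the interaction was the reverse there for 91 of the genes called higher and 34 of those called lower. Genes with few reads at 0 h limit the interaction: 138 of the 1587 had both 0 h means under 0.25 CPM.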
